A study of Mus musculus with 10 samples.

Results

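A list of 31 epidermal barrier lipid genes, from the ceramide, acylceramide and lipoxygenase pathways, was followed through basal and suprabasal keratinocytes of progeria model mice and wild type mice. A gene was taken as measured where a row of status OK in a deposited table named it. By this rule 28 of the 31 genes were measured in both layers, among 10583 loci of status OK in both tables. Alox12b and Aloxe3 were listed in the suprabasal table alone, which makes 30 genes there, and Degs2 had no row in either table. Each of the 30 genes stood in a row that names no other gene.

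The outer epidermis holds water by means of lipid sheets between dead cells. Keratinocytes build sphingoid bases from serine and palmitate and join them to very long fatty acids, which makes ceramides. These are packed as glucosylceramides and sphingomyelins into lamellar bodies, which are emptied into the space between cells. There the head groups are removed, and a set of ceramides that carry linoleate is oxidised by lipoxygenases and bound to the cell envelope. Inherited loss of several of these genes causes ichthyosis in humans.

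The cells came from FVB/N mice at postnatal day 4 and were separated by flow sorting. In each of the layers the wild type group had 3 samples and the bitransgenic HGPS (BT) group had 2. HGPS is Hutchinson-Gilford progeria, in which progerin, a shortened lamin A, accumulates. The labels name neither the transgenes of the BT mice nor the promoter that drives them, and nothing in the labels says whether samples of 1 group are separate animals. Each group is given as 1 value by the authors, read as FPKM (fragments scaled to transcript length and library size). No error can therefore be given for a level, and how deeply the libraries were sequenced is not known. Log2 fold changes are printed with ± their standard error (SE), worked back from the p the authors gave. An SE taken from the authors' test statistic would be larger for every measured gene of the list, in each layer. All changes are BT over wild type. A gene is called when the authors' q, their adjusted p, is under 0.05. In bulk samples, a lower share of cells that express a gene cannot be told apart from less RNA per cell.

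Some facts of the whole tables touch every comparison. The median log2 fold change of loci with at least 1 FPKM in both groups was -0.11 in basal and -0.08 in suprabasal cells, and centred values are relative to it. The locus that names Xist had 0.258 FPKM in wild type and 108 FPKM in BT basal cells, and 0.236 and 103 FPKM in suprabasal cells. The Y-linked Ddx3y had 32.1 and 20.7 FPKM in basal cells and 31.2 and 14.1 FPKM in suprabasal cells, so the groups did not have the same mix of sexes. The part of sex in the results was not tested. Among the marker lists of other cells, none of 7 adipocyte and none of 4 endothelial markers had a row in either layer, and 1 of 6 leukocyte markers did in each. Of 7 fibroblast markers 2 had a row in basal cells, summing to 15.1 FPKM in wild type and 5.53 FPKM in BT, and 5 in suprabasal cells, summing to 20.3 and 31.8 FPKM. The melanocyte markers, 3 of 7 in basal cells, summed to 8.38 and 12.9 FPKM there, while all 7 had a row in suprabasal cells and summed to 2045 and 3788 FPKM. Of 7 hair follicle markers only Krt17 and Tchh had rows in either layer, with sums of 595 and 899.6 FPKM in basal and 1752 and 2161 FPKM in suprabasal cells, and Tchh was called lower in both.

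In wild type skin most of these genes were higher in the suprabasal cells. Of the 28 genes, 24 had the higher level there, and the median ratio of suprabasal to basal level was 1.96. Over all 10583 loci 47.2% were higher in suprabasal cells and the median ratio was 0.975. Since normalization was separate for each layer's table, these ratios are a description. The widest ratio was that of Alox12e, an epidermal 12-lipoxygenase of the mouse, with 4.70 FPKM in basal and 33.3 FPKM in suprabasal cells. Cers4 (ratio 5.15), Dgat2 (4.87), Fa2h (4.78) and Acer1 (4.20) followed. The genes with the higher basal level were Asah1 (0.777), Sptlc2 (0.788), Psap (0.856) and Abhd5 (0.957). Asah1 and Psap act in lysosomes of most cells, and Sptlc2 encodes a subunit of the enzyme that opens the pathway in most tissues. In wild type basal cells the levels ran from 2.97 FPKM for Cers4 to 186 FPKM for Psap, with a median of 10.99 FPKM, and in wild type suprabasal cells from 1.89 FPKM for Aloxe3 to 159 FPKM for Psap, with a median of 17.8 FPKM.

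**Figure D1:**
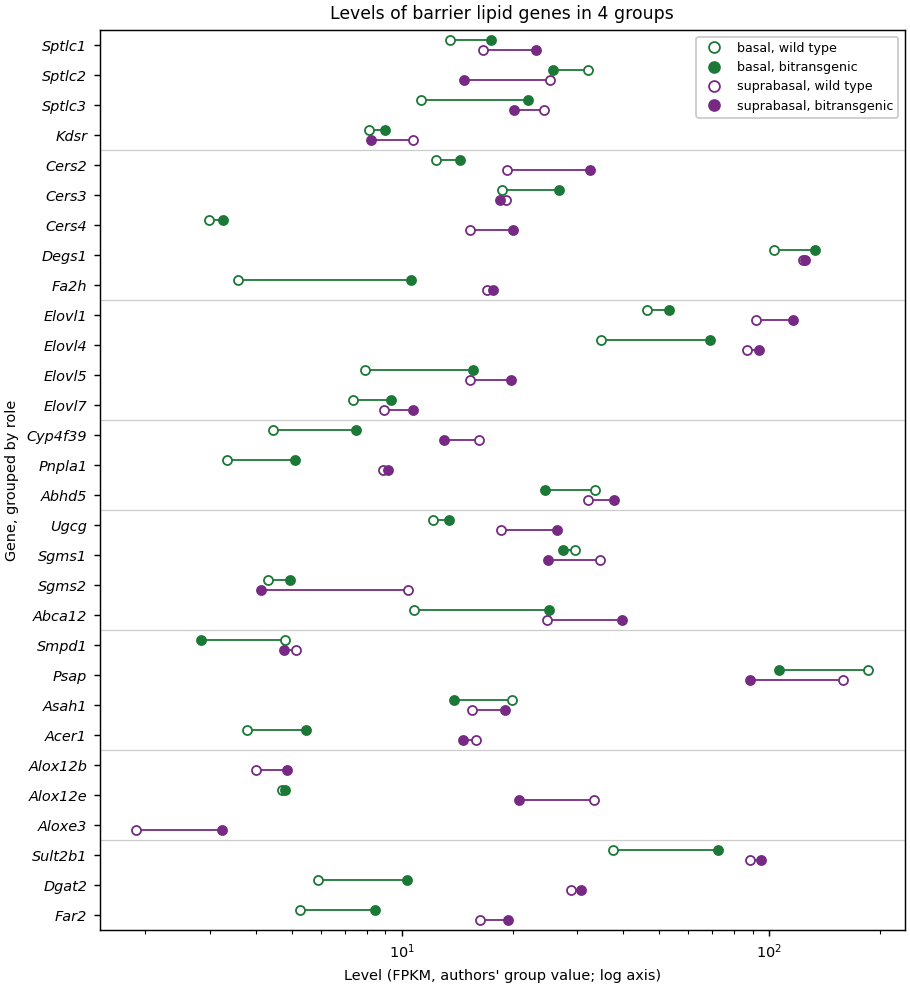
Level of the 30 measured genes on a log axis in FPKM, grouped by role, with 1 authors' value per group. Open points are wild type and filled points bitransgenic, green for basal and purple for suprabasal cells. Fa2h moves from 3.57 to 10.6 FPKM in basal cells while its suprabasal points, at 17.1 and 17.7 FPKM, nearly coincide.

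In basal cells, 3 of the 28 genes rose with the BT genotype and none fell. They were Fa2h, which encodes the hydroxylase of the fatty acid in ceramides, Abca12, which encodes the transporter that fills lamellar bodies with lipid, and Elovl4, which encodes the elongase of the longest fatty acids. Of all 11290 loci, 0.257% were called higher and 1.39% lower. At an unadjusted p under 0.05 in the authors' deposited table, 6 genes were higher and 1 was lower, against 1.47% and 6.21% of all loci. The median log2 fold change of the 28 genes was 0.35, against -0.12 over all loci. Above 0 lay 22 of the 28, or 78.6%, against 39.7% of all loci (82.1% and 49.1% after centring). The call of Abca12 held when the authors' p was adjusted anew over the loci analysed, while those of Elovl4 (adjusted p = 0.0815 with Benjamini-Hochberg adjustment of p in the authors' deposited table) and Fa2h (0.131) did not. Earlier results of these data were known when the list was drawn up, so these counts describe the list and are no independent evidence of a direction.

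Markers of other cells and stages were read in basal cells as well. All 5 sebocyte markers with a row (of 9 listed) lay above 0, their summed level going from 697 to 897 FPKM, and none was called. Scd1, the desaturase of sebocytes and keratinocytes, had 35.4 and 65.4 FPKM, and Mc5r, Awat1, Awat2 and Plin5 had no row. The 9 suprabasal keratinocyte markers divided: Dsc1 rose from 13.7 to 38.1 FPKM and Lor fell from 17.2 to 3.18 FPKM, while Krt10 had 2319 and 1601 FPKM and Krt1 had 1725 and 1749.7 FPKM. Their sum was 8635 FPKM in wild type and 10734 FPKM in BT, of which Krtdap alone made up 4173 and 6915 FPKM. The other 8 summed to 4462 and 3819 FPKM. The 9 basal keratinocyte markers summed to 18885 and 12097 FPKM, with Krt15 called lower. Most of that sum came from rows that merge Krt5 and Krt14 with other keratin genes, at 11677 and 6923 FPKM for the row of Krt5 and 4375 and 3926 FPKM for that of Krt14. The part of these cells and stages in the change of the lipid genes was not tested.

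In suprabasal cells none of the 30 genes was called, where 0.0523% of all 11464 loci were called higher and 0.419% lower. The authors' test, in the form of Cuffdiff, gave an unadjusted p under 0.05 for none of the genes in the upward direction and for 1, Psap, in the downward direction, against 1.95% and 5.16% of all loci. The median log2 fold change was 0.09, against -0.08 over all loci, and 19 of the 30, or 63.3%, lay above 0, against 43.4% of all loci (66.7% and 49.8% after centring). Of 9 sebocyte markers 7 had a row there, 4 above 0 and 3 below, and none was called. Their sums were 2318 and 2048 FPKM, of which Krt79 alone made up 1618 and 1409 FPKM. The 9 suprabasal keratinocyte markers summed to 18818 and 14299 FPKM, though 6 of them lay above 0 and none was called. Of the 3 below 0, Krt10 had 6574 and 2354 FPKM (-1.48 ± 1.52) and Krt1 had 3419 and 1622 FPKM (-1.08 ± 1.62). The third, a row that names Dsg1a and Dsg1c, had 70.1 and 31.6 FPKM (-1.15 ± 0.38). In the authors' deposited table its unadjusted p was 0.00235, the only 1 of the 9 under 0.05, and its q was 0.141. The 9 basal keratinocyte markers, with the same merged rows, summed to 8759 and 4767 FPKM, Krt15 again being called lower.

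**Figure D2:**
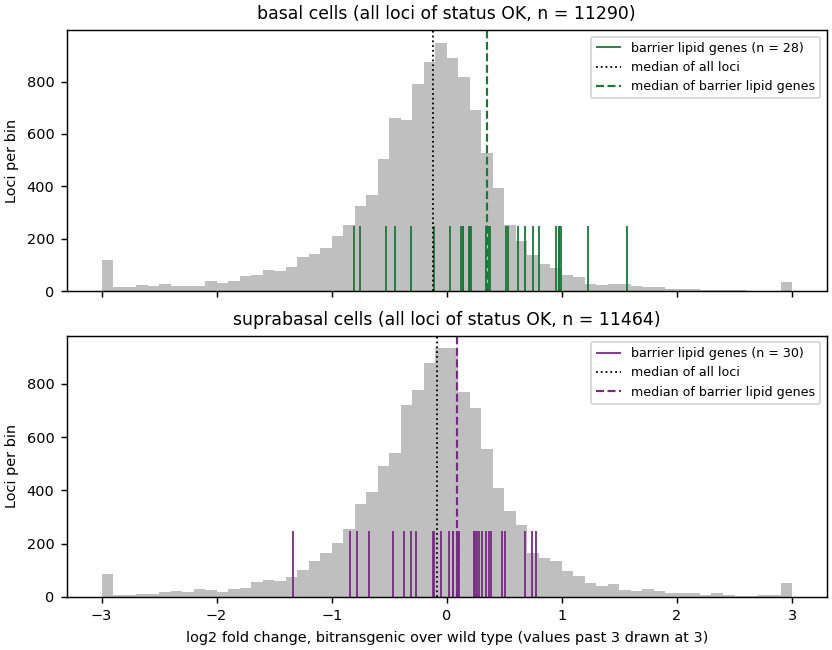
Histograms of the log2 fold change, BT over wild type, of all loci of status OK in basal (top) and suprabasal cells (bottom), with the barrier lipid genes as coloured ticks. The median of the barrier lipid genes is 0.35 in basal and 0.09 in suprabasal cells, and that of all loci -0.12 and -0.08.

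The pathway opens with serine palmitoyltransferase, whose catalytic partner subunits are encoded by Sptlc2 and Sptlc3 and whose common subunit is encoded by Sptlc1. Sptlc3 had 11.2 FPKM in wild type and 22.0 FPKM in BT basal cells, and 24.4 and 20.2 FPKM in suprabasal cells. The basal change of 0.97 ± 0.40 had an unadjusted p of 0.0144 and a q of 0.150 in the authors' deposited table, so it was not called. Sptlc2 had 32.0 and 25.8 FPKM in basal and 25.2 and 14.7 FPKM in suprabasal cells, lower in BT in each layer by less than the test could call. In wild type suprabasal cells Sptlc3 and Sptlc2 thus stood at like levels, and in BT suprabasal cells Sptlc3 stood at 20.2 FPKM beside 14.7 FPKM for Sptlc2. Sptlc1 had 13.5 and 17.4 FPKM in basal and 16.6 and 23.1 FPKM in suprabasal cells. Kdsr, the reductase of the next step, had 8.14 and 8.98 FPKM in basal and 10.7 and 8.23 FPKM in suprabasal cells. Of these 4 genes 3 lay above 0 in basal cells and 1 in suprabasal cells.

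Ceramide synthases join the sphingoid base to a fatty acid, and each isoform has its own range of chain lengths. Cers3, the synthase for ultra-long chains in epidermis and testis, had 18.7 and 26.7 FPKM in basal cells and 19.2 and 18.4 FPKM in suprabasal cells. Cers2, which uses very long chains in many tissues, had 12.4 and 14.4 FPKM in basal and 19.4 and 32.4 FPKM in suprabasal cells. Cers4, a synthase for long chains that is known from skin, had 2.97 and 3.24 FPKM in basal and 15.3 and 20.02 FPKM in suprabasal cells. None of the synthases was called in either layer, and the suprabasal sign of Cers3 depended on the scaling (-0.05 as deposited, 0.03 after centring). Degs1, the desaturase that turns dihydroceramide into ceramide, was among the most abundant of the genes in all groups, with 103 and 134 FPKM in basal and 123 and 125 FPKM in suprabasal cells.

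Fa2h had the largest change of the list. Its level was 3.57 FPKM in wild type and 10.6 FPKM in BT basal cells, a 2.96-fold rise (log2 1.57 ± 0.49, 1.68 after centring) with a q of 0.0371 in the authors' deposited table. In suprabasal cells it had 17.1 and 17.7 FPKM (0.05 ± 0.40). The BT basal level lay between the wild type basal and the suprabasal levels. Fa2h lies on the minus strand of chromosome 8 (mm10, GENCODE M21 gene span 111345135 to 111393824).

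All 4 elongases lay above 0 in both layers, and 1 was called. Elovl4 had 34.7 FPKM in wild type and 69.1 FPKM in BT basal cells, a 1.99-fold rise (log2 0.99 ± 0.29, 1.10 after centring) with a q of 0.0371 in the authors' deposited table. In suprabasal cells it had 87.0 and 93.5 FPKM (0.10 ± 0.33). Elovl5, which elongates polyunsaturated fatty acids, showed a basal difference of like size at a lower level, 7.94 and 15.6 FPKM, with a larger error (0.97 ± 0.49) and a q of 0.382 in the authors' deposited table. It had 15.3 and 19.8 FPKM in suprabasal cells. Elovl1, which makes saturated very long chains, had 46.3 and 53.2 FPKM in basal and 91.7 and 116 FPKM in suprabasal cells. Elovl7, a further elongase, had 7.37 and 9.34 FPKM in basal and 8.93 and 10.7 FPKM in suprabasal cells. Elovl1 and Elovl4 were the abundant elongases in each of the 4 groups.

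Acylceramides need a hydroxyl group at the far end of the fatty acid and a linoleate joined to it. Cyp4f39, the mouse counterpart of the human hydroxylase CYP4F22, had 4.45 and 7.49 FPKM in basal cells and 16.1 and 13.0 FPKM in suprabasal cells. Pnpla1, the transacylase that attaches the linoleate, had 3.33 and 5.12 FPKM in basal and 8.85 and 9.17 FPKM in suprabasal cells. Abhd5, which activates the lipase Atgl and assists Pnpla1, had 33.5 and 24.5 FPKM in basal and 32.1 and 37.7 FPKM in suprabasal cells. None of the 3 was called in either layer. Cyp4f39 and Pnpla1 lay above 0 in basal cells, at 0.75 ± 0.44 and 0.62 ± 0.36, and Abhd5 below it, at -0.45 ± 0.53.

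Abca12, which loads glucosylceramide into lamellar bodies, had the smallest basal p of the list. Its level was 10.8 FPKM in wild type and 25.2 FPKM in BT basal cells, a 2.34-fold rise (log2 1.23 ± 0.32, 1.34 after centring) with a q of 0.0135 in the authors' deposited table. In suprabasal cells it had 24.7 and 39.6 FPKM (0.68 ± 0.35), with an unadjusted p of 0.0506 and a q of 0.523 in the authors' deposited table. The order of the 4 levels put BT basal cells level with wild type suprabasal cells. Ugcg, the glucosylceramide synthase, had 12.2 and 13.4 FPKM in basal and 18.5 and 26.3 FPKM in suprabasal cells. The sphingomyelin synthase gene Sgms1 had 29.5 and 27.3 FPKM in basal and 34.6 and 25.02 FPKM in suprabasal cells, and its basal sign depended on the scaling (-0.11 as deposited, 2.66e-04 after centring). Its relative Sgms2 had 4.31 and 4.94 FPKM in basal cells. In suprabasal cells Sgms2 had 10.4 FPKM in wild type and 4.13 FPKM in BT, the largest suprabasal difference of the list (-1.33 ± 0.68), with an unadjusted p of 0.0510 in the authors' deposited table, so it was not called.

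Upstream sequences are shown for Abca12 and Elovl4, which were called higher in basal cells. The RefSeq promoter table (GRCm38.p6, the assembly of mm10) held 27 of the 31 genes in 39 start windows, and did not hold Aloxe3, Asah1, Dgat2 or Fa2h. The 250 bases before the start are printed on the strand of the gene, 5′ to 3′, with capitals for matches to the KLF motif CCNCNCCC on either strand. Abca12 lies at chr1:71414911-71415160 on the minus strand, and Elovl4 at chr9:83806306-83806555 on the minus strand.
Abca12: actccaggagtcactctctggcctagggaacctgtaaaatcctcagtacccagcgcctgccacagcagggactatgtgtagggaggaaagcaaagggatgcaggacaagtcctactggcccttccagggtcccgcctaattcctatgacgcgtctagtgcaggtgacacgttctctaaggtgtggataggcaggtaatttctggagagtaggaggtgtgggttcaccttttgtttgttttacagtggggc
Elovl4: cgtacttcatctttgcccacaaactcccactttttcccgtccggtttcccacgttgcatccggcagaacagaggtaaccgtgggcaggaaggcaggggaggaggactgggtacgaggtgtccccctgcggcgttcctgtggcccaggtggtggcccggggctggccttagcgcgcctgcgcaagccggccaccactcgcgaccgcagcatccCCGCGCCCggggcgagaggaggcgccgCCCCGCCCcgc

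The Elovl4 window held 2 KLF matches close to the start, and the Abca12 window held none. The windows also differed in base composition, with 69.6% G and C for Elovl4 and 53.2% for Abca12, against a median of 52.4% over all 32851 windows. Neither window held the AP-1 motif TGANTCA, the grainyhead motif AACNNGTT or the C/EBP motif TTGCNNAA. The KLF letters are common: 22 of the 27 genes held them in at least 1 window, and so did 45.9% of all windows. Over the 39 windows of the list, which have a median G and C content of 61.6%, KLF letters were in 28, AP-1 letters in 5 (Psap, Sgms1, Sgms2 and Sult2b1; 6.75% of all windows), grainyhead letters in 1 (Sgms1; 3.64%) and C/EBP letters in 2 (Cers2 and Sptlc3; 9.56%). No other motif overlapped the KLF matches of Elovl4, and a window with matches on both strands was counted once. A match describes the letters of these windows and is not a binding site.

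Of the 4 genes that break ceramides and sphingomyelins down, 3 lay below 0 in basal cells, and none was called. Psap encodes prosaposin, the source of the saposins that present sphingolipids to lysosomal hydrolases. It had 186 FPKM in wild type and 106 FPKM in BT basal cells (-0.80 ± 0.28), and 159 and 88.5 FPKM in suprabasal cells (-0.84 ± 0.35). Its q of 0.0568 in basal and 0.252 in suprabasal cells in the authors' deposited table missed the threshold in each layer. Levels were lower in BT in both layers, by about the same size. Smpd1, the acid sphingomyelinase, had 4.79 and 2.84 FPKM in basal and 5.14 and 4.76 FPKM in suprabasal cells. Asah1, the acid ceramidase, had 19.9 and 13.9 FPKM in basal and 15.5 and 19.1 FPKM in suprabasal cells. Acer1, an alkaline ceramidase of the epidermis, had 3.78 and 5.46 FPKM in basal and 15.9 and 14.6 FPKM in suprabasal cells. The basal median of the 4 genes was -0.64 and the suprabasal median -0.11.

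The lipoxygenases Alox12b and Aloxe3 oxidise the linoleate of acylceramides before these are bound to the cell envelope, Alox12b acting before Aloxe3. Alox12b had 4.01 and 4.87 FPKM in suprabasal cells and Aloxe3 had 1.89 and 3.23 FPKM, which makes Aloxe3 the least abundant gene of the list there. Alox12e had 4.70 and 4.81 FPKM in basal cells and 33.3 and 20.8 FPKM in suprabasal cells (-0.68 ± 0.38). None of the lipoxygenases was called. The suprabasal signs differed, with Alox12b and Aloxe3 above 0 and Alox12e below it.

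The remaining 3 genes make other barrier and surface lipids. Sult2b1, which sulfates cholesterol in the differentiating epidermis, had 37.5 FPKM in wild type and 72.5 FPKM in BT basal cells. That 1.93-fold difference (log2 0.95 ± 0.33) had a q of 0.0545 in the authors' deposited table, above the threshold of 0.05. In suprabasal cells Sult2b1 had 88.8 and 94.8 FPKM (0.09 ± 0.35). Dgat2, which makes triacylglycerol, had 5.91 and 10.3 FPKM in basal and 28.8 and 30.6 FPKM in suprabasal cells. Far2, a fatty acyl reductase of wax synthesis, had 5.28 and 8.46 FPKM in basal and 16.3 and 19.4 FPKM in suprabasal cells, with the largest error of the list in basal cells (0.68 ± 1.40). All 3 genes lay above 0 in both layers, and none was called.

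**Figure D3:**
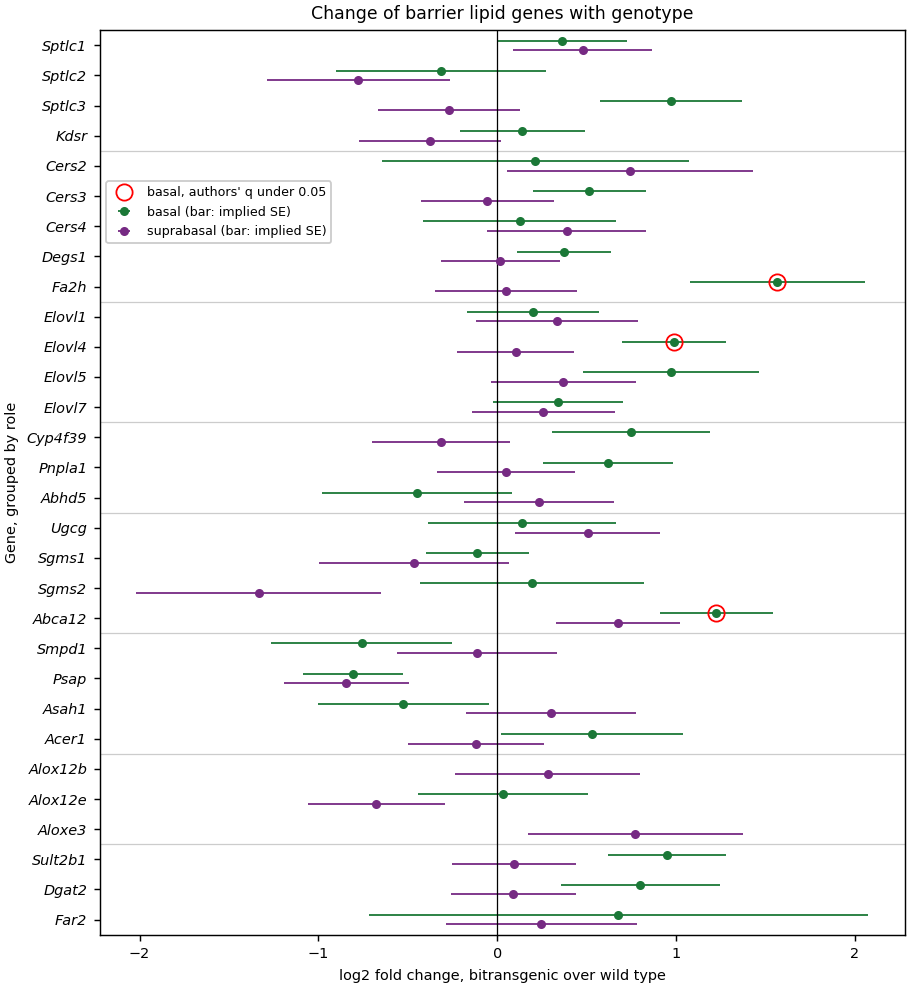
The log2 fold change, BT over wild type, of the 30 measured genes in basal (green) and suprabasal cells (purple), with bars for the SE implied by the authors' p. Red rings mark Fa2h, Elovl4 and Abca12 in basal cells, the genes with an authors' q under 0.05.

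The layers were compared by the difference itself, the log2 fold change in suprabasal cells less that in basal cells, with a two-sided Wald test. No gene of the 28 passed after Benjamini-Hochberg adjustment over all loci, where 0.0378% of loci did, and 3 had an unadjusted p under 0.05, against 3.08% of all loci. These were Fa2h (-1.52 ± 0.63), Sptlc3 (-1.24 ± 0.56) and Elovl4 (-0.89 ± 0.44), and with the SE taken from the deposited test statistic there was none. The 95% intervals, -2.75 to -0.28 for Fa2h, -2.35 to -0.14 for Sptlc3 and -1.74 to -0.03 for Elovl4, are for single genes and carry no adjustment. For Abca12 the difference was -0.55 ± 0.47, with a 95% interval from -1.47 to 0.37, so these data do not show that Abca12 responded differently in the layers. Psap had a difference of -0.04 ± 0.45. The rise of Fa2h and Elovl4 in basal cells is thus not shown to be particular to that layer.

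The ratio of suprabasal to basal level was lower in BT for 20 of the 28, against 50.7% of all loci. Its median went from 1.96 in wild type to 1.46 in BT. On the log2 scale, the change of a gene's ratio is the same layer difference tested above, where no gene passed after adjustment. The ratios are thus no further evidence. Over all loci the median ratio was 0.975 in wild type and 0.982 in BT. Fa2h had a ratio of 4.78 in wild type and 1.67 in BT, Cyp4f39 of 3.63 and 1.73, Elovl4 of 2.50 and 1.35, and Sult2b1 of 2.36 and 1.31. For Sptlc3 (2.17 and 0.917) and Sgms2 (2.41 and 0.835) the suprabasal level was above the basal one in wild type and below it in BT. A lower ratio is not always a narrower gap. The gap was taken as the size of the log2 ratio, whichever layer was higher. It was narrower in BT for 17 of the 28 genes, against 41.4% of all loci. It was wider for 11, which include Sptlc2 (0.788 and 0.571), Psap (0.856 and 0.833) and Cers3 (1.03 and 0.691). The median wild type ratio was further from 1 for the list (1.96) than for all loci (0.975), so this comparison is not like for like. The ratio was higher in BT for 8 genes, among them Cers4 (5.15 and 6.17), Cers2 (1.56 and 2.26), Smpd1 (1.07 and 1.68) and Asah1 (0.777 and 1.38). Among loci with a wild type ratio of at least 2, the ratio was lower in BT for 12 of 13 genes of the list and for 68.7% of all 799 such loci. Loci picked for a high wild type ratio are partly picked for errors that raise that ratio. The BT ratio then tends to be the lower one without any effect of genotype.

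**Figure D4:**
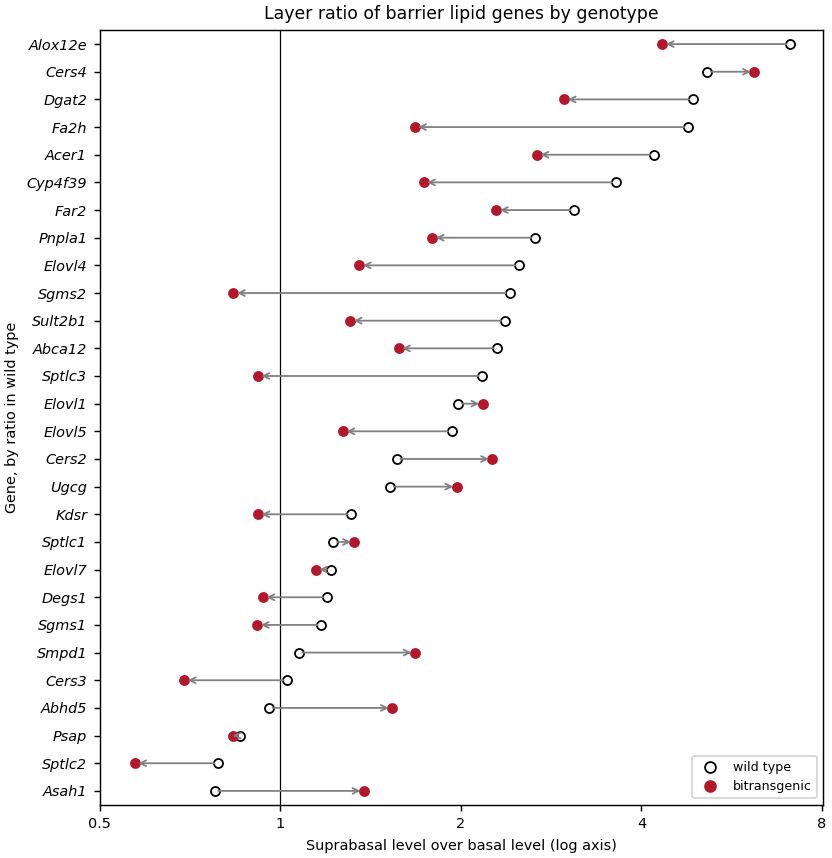
Ratio of suprabasal to basal level on a log axis for the 28 genes measured in both layers, ordered by the wild type ratio, with arrows from wild type (open) to bitransgenic (red). Arrows point left, to a lower ratio, for 20 of the 28 genes, and Fa2h goes from 4.78 to 1.67.

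Other genes of these pathways were read from a second list of 110 names, of which Stard11 is another name of Col4a3bp. Rows of status OK named 83 of them in basal and 91 in suprabasal cells. In basal cells 1 fell and none rose, where 1.39% of all loci were called lower and 0.257% higher, and in suprabasal cells none was called (0.419% and 0.0523% of all loci). The gene that fell was Mgll, which encodes a lipase of monoacylglycerols. Its main row had 17.7 FPKM in wild type and 5.15 FPKM in BT basal cells (-1.78 ± 0.46), with a q of 0.0135 in the authors' deposited table, and 39.9 and 48.4 FPKM in suprabasal cells. The call was lost after centring (adjusted p = 0.0562 with Benjamini-Hochberg adjustment, from the SE implied by p in the authors' deposited table). A second row that names Mgll had 3.40 and 0.240 FPKM in basal cells and was not called. At an unadjusted p under 0.05 in the authors' deposited table, 5 related genes were higher and 5 lower in basal cells, against 1.47% and 6.21% of all loci, and 2 were higher and 10 lower in suprabasal cells, against 1.95% and 5.16%. The basal median over the related genes was -0.17, below 0 as for all loci, while that of the 28 genes was 0.35. The 5 on the higher side in basal cells were Tgm1 (4.54 and 10.7 FPKM), the transglutaminase of the cell envelope, Elovl6 (11.4 and 20.2 FPKM), an elongase of palmitate, Scd1, Nipal4 (9.42 and 16.3 FPKM), a gene of human ichthyosis, and Zfp750 (54.7 and 89.3 FPKM), a transcription factor of terminal differentiation. The 5 on the lower side were Mgll, Klf4, Cerk (9.26 and 4.35 FPKM), the ceramide kinase, Ormdl3 (17.8 and 10.5 FPKM), a regulator of serine palmitoyltransferase, and Rxra (64.1 and 44.1 FPKM), a nuclear receptor. In suprabasal cells the smallest p of the related genes was that of Alox12, a further lipoxygenase, with 10.2 and 2.67 FPKM, and it was not called. The 10 on the lower side there were Alox12, Cers6, Acsl1, Abca2, Pnpla3 and 5 of 14 regulators. These regulators were Cebpa, Cebpb (28.9 and 6.50 FPKM), Gata3 (in a merged row), Klf4 and Rxra (72.9 and 43.4 FPKM). The 2 on the higher side were Sdr9c7 and Awat1. Klf4, a transcription factor of barrier formation, had 138 and 84.7 FPKM in basal and 172 and 100.3 FPKM in suprabasal cells and was not called in either. Grhl3, a grainyhead factor of the epidermis, had 13.8 and 20.6 FPKM in basal and 25.8 and 27.2 FPKM in suprabasal cells.

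By class, none of 22 ceramide and sphingolipid genes, 17 loci of elongation, activation and desaturation, 18 genes of acylceramides, lipoxygenases and lamellar bodies, or 15 regulators was called in basal cells, and Mgll was the 1 called among 11 loci of storage, wax and sterol lipids. The basal medians were -0.24, 0.16, -0.11, -0.17 and -0.38 in that order, and the suprabasal medians were -0.18, -0.15, -0.24, -0.39 and 0.11. Gltp, which encodes a glycolipid transfer protein, had 178 and 231 FPKM in basal and 281 and 293 FPKM in suprabasal cells. Of the 80 related loci measured in both layers, none passed the adjusted test of the layer difference and 4 had an unadjusted p under 0.05, against 0.0378% and 3.08% of all loci.

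The annotation limits a few of the values. In GENCODE M21 the exons of 10 of the 31 genes overlap an exon of another gene, in each case on the opposite strand. Among them are Elovl1 with Cdc20, Cers2 with Setdb1 and Far2 with Ergic2. The libraries are strand-specific per the labels, but the strand setting of the authors' counting is not given in the sources used here. Fa2h, Elovl4, Abca12, Sptlc3 and Psap have no such overlap. The 31 genes lie on 14 chromosomes.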

How the data were processed

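RNA of sorted keratinocytes was sequenced from 10 samples, with libraries made from 10 ng of RNA each, per the labels' protocols. Per the submitters' processing notes, TopHat and Cufflinks were used with mm10; no version is given. For each layer the authors deposited a table laid out like Cuffdiff output, with 1 level per genotype (taken to be FPKM because of that layout), the log2 fold change, a test statistic (a score), and the authors' p-value and q-value. Scaling between libraries is not given in the sources used here. Of 11316 basal and 11490 suprabasal loci, 26 each had the status HIDATA and were left out. Log2 fold changes were recomputed from the levels and differed from the deposited ones by at most 4.13e-05. The SE is the size of the log2 fold change over the normal quantile that matches the authors' two-sided p. The deposited test statistic was smaller in size than that quantile for every measured gene of the list, so the SE it implies is larger. No gene of the list was at 5e-05, the smallest p. The layer difference was a two-sided Wald test with Benjamini-Hochberg adjustment over all 10583 loci of status OK in both tables. It treats the layers as independent, although 3 wild type and 1 BT title stems recur in both layers. Counts over samples could not be made, since no value of a single sample was analysed here. p-values measure the spread the authors' test used, which may be technical. Motifs were searched in the 250 bases before each start. The members and lists were chosen with earlier results of these data known. All genes of the list are named. Of the related genes, those called in either layer are named by rule, and the others were picked after their values were seen. Python 3.11.15, pandas 2.3.3 and scipy 1.17.1 were used.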

Additional observations from a re-analysis of the deposited data

How the results depend on the processing

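The count of 3 barrier lipid genes called in basal cells depends on the adjustment. With the authors' p adjusted anew over the loci analysed, 1 was called, and the same number with at least 1 FPKM in both groups, with a mean of at least 5 FPKM or with single-gene loci. Abca12 was that gene in each of the 4 settings (adjusted p from 0.0180 to 0.0228). After centring, 2 were called, with Elovl4 at an adjusted p of 0.0481 and Fa2h at 0.0958. Over the 5 readjusted settings Elovl4 ran from 0.0481 to 0.0837, Fa2h from 0.0958 to 0.134 and Abca12 from 0.0180 to 0.0276. Over all basal loci 186 were called by the authors' q and 63 with p adjusted anew. At the authors' q under 0.01 none was called. Mgll, the 1 related gene called in basal cells, was lost after centring (0 called, adjusted p 0.0562) and at the authors' q under 0.01 (0 called). No alternative gave a call among the 30 genes or the related genes in suprabasal cells, or among the 28 genes in the test of the layer difference. With the SE taken from the deposited test statistic, 0 of the 28 had an unadjusted p under 0.05 in that test, against 3. The median log2 fold change of the list ran from 0.23 to 0.46 in basal and from 0.08 to 0.17 in suprabasal cells over pseudocounts of 1 and 5 FPKM, centring and the level filter. The tables hold 1 value per group, so no replicate could be left out. No paired analysis was possible because each genotype enters as 1 group value. Depth is unknown, and the implied SE of a single gene, 0.26 to 1.40 in basal cells, limits what could be called.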
